A study of Mus musculus with 2 samples.

Results

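The insulin, FOXO and mTOR genes are 10 protein-coding genes of a single signalling route: Igf1, Igf1r, Insr, Irs1, Irs2, Akt1, Foxo1, Foxo3, Mtor and Rptor. They were taken by name from 21884 protein-coding genes of the mouse annotation on build mm10, with each gene body extended by 10 kb on both sides. Open chromatin around them was measured by DNase-seq, in which the enzyme DNase I cuts accessible DNA in nuclei and the cut ends are sequenced. The samples were 2 libraries of left cerebral cortex from male adult mice of the strain B6CASTF1/J, an F1 hybrid with a C57BL/6 and a CAST parent, aged 18 to 20 months. No treatment or second condition was present. The labels number the libraries as biological replicates 1 and 2 from separate tissue samples that share a donor entry. Differences between them may thus be technical in origin.

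Insulin and the insulin-like growth factor IGF1 bind the receptor tyrosine kinases encoded by Insr and Igf1r. The receptors phosphorylate the docking proteins IRS1 and IRS2, which recruit PI3 kinase and so activate the kinase AKT. Active AKT keeps the FOXO transcription factors out of the nucleus and turns on mTOR complex 1, in which raptor, the product of Rptor, presents substrates to the kinase mTOR. Lower activity of this route is known to extend lifespan in worms, flies and mice, and in brain it acts on neuronal growth, synapses and metabolism.

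The libraries held 73221 peaks (replicate 1) and 111105 peaks (replicate 2) in the shorter of the lists that the authors deposited for each, with a median peak signal of 1.24 and 0.894. A peak signal is the authors' own value for a peak, and its scaling is not stated. Read depth is unknown, so no counting interval is given. Promoter peaks were found at all 6 neuronal markers checked and at 3 of 4 oligodendrocyte and 2 of 4 astrocyte markers in both libraries. They were found at 1 of 3 endothelial markers, at 0 of 4 microglial markers and at 0 of 7 genes of other organs. The tissue holds many cell types, and a low signal in most cells cannot be told apart from a high signal in few.

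Of the 10 genes, 8 had a promoter peak, meaning a peak within 1 kb of an annotated transcription start site (TSS), in both libraries. Among all protein-coding genes the share was 58.7%. The exceptions stood at the top and in the middle of the route: the ligand gene Igf1 had a promoter peak in replicate 2 only, and the kinase gene Akt1 had none at the TSS set used. In the wider lists, which the authors also deposited, all 10 genes had a promoter peak in both libraries, against 63.3% of all genes. The median signal of the strongest promoter peak was 5.57 over the 8 genes with one in replicate 1 and 3.35 over 9 genes in replicate 2 (4.49 over the same 8), against 3.82 and 2.88 over all genes with a promoter peak.

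**Figure D1:**
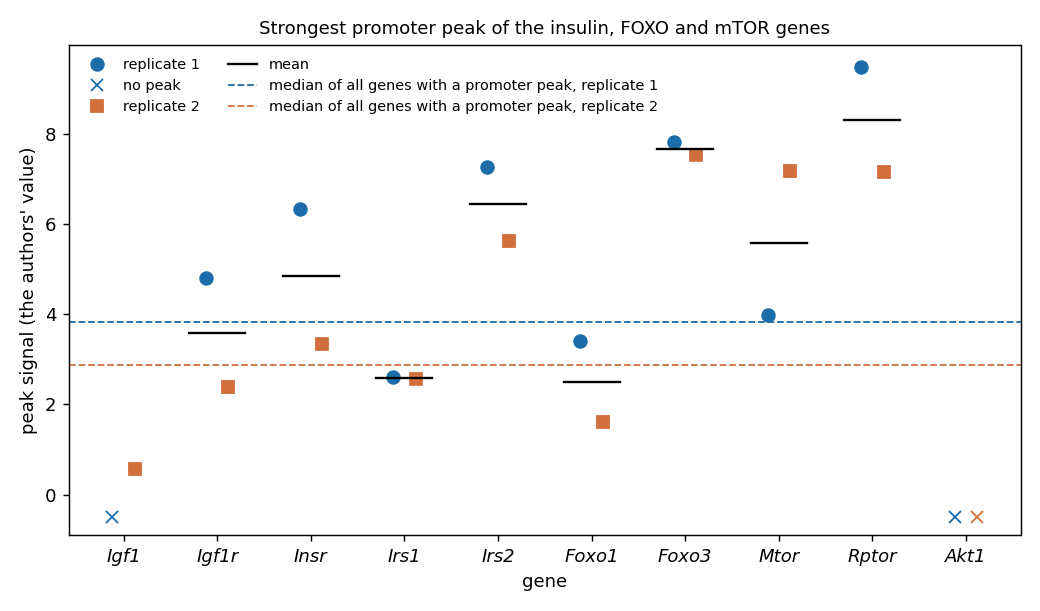
Signal of the strongest promoter peak (vertical axis, the authors' value) of each gene in replicate 1 (circles) and replicate 2 (squares), with the mean as a black bar and crosses below 0 for no peak. Rptor, Foxo3, Irs2, Mtor and Insr lie above the dashed median of all genes with a promoter peak in each library, Igf1 has a single point at 0.567, and Mtor is the only gene with both points whose value is higher in replicate 2.

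The ligand gene Igf1 (ENSMUSG00000020053.18, chr10:87858265-87937042, plus strand) encodes the growth factor that circulates mainly from liver and is also made in brain. Replicate 1 had no promoter peak here. Replicate 2 had 3, and the strongest reached 0.567, above only 4.42% of the genes with a promoter peak in that library. The promoter peaks of replicate 2 measured 198, 56 and 70 bp and lay at chr10:87859101-87859298, chr10:87860407-87860462 and chr10:87860581-87860650. The wider lists held 3 promoter peaks of Igf1 in each library. In the per-base lists of false discovery rates, the 5065 bp within 1 kb of its TSSs held 2 bp at or below a rate of 0.001 in replicate 1 and 405 bp in replicate 2. Accessibility at the Igf1 promoters was therefore at the edge of what was called, and the libraries fell on opposite sides of that edge. Another gene, Igf1os, overlaps these positions.

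The receptor gene Igf1r (ENSMUSG00000005533.10, chr7:67952827-68233668, plus strand) had its strongest promoter peak at 4.80 in replicate 1 and 2.38 in replicate 2 (mean 3.59 ± 1.71, SD, n = 2). The peak lay 907 to 947 bp upstream of the GENCODE TSS, in sequence of 80.4% GC. A second peak, 367 bp upstream, had a signal of 2.41 and 1.82. RefSeq places the TSS of this gene further upstream, at position 67952257, inside this second peak. The insulin receptor gene Insr (ENSMUSG00000005534.10, chr8:3122061-3279617, minus strand) had a single strong peak across its TSS, with 6.34 in replicate 1 and 3.35 in replicate 2 (4.85 ± 2.11). Both receptor genes had the higher promoter signal in replicate 1.

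The promoter peaks of the receptor genes are shown because, of the 200 bp windows centred on each gene's strongest promoter peak, only that of Insr held FOXO letters, and because Igf1r had the only E-box in a footprint of both libraries. A footprint is a short run of bases that the authors called as protected from cutting within open chromatin. The Igf1r sequence is chr7:67951661-67951920 on the plus strand of mm10, with capitals for bases in footprints of both libraries. The Insr sequence is chr8:3279543-3279569 on the minus strand, 27 bases of the untranslated first exon, with the FOXO letters in capitals.
Igf1r promoter: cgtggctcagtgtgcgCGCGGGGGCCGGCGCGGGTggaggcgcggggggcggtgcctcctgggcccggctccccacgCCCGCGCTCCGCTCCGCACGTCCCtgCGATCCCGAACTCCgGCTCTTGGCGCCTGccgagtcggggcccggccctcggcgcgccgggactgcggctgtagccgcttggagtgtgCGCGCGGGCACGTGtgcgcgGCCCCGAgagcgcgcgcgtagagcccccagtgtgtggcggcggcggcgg
Insr FOXO letters: cgggctgcgtTGTTTACgggctggagt
The Igf1r footprints covered 92 of the 260 bases, in 6 stretches. One of them holds CACGTG, the E-box bound by MYC, MITF and USF family factors, 967 bp upstream of the TSS. The Insr letters are the reverse complement of GTAAACA, the core that forkhead factors of the FOXO family bind. They lay 64 bp downstream of the TSS, and no footprint of either library overlapped them. FOXO factors are known to raise transcription of the insulin receptor gene in flies and in mouse muscle cells. Among the 200 bp windows centred on the strongest promoter peak of every gene, 1.20% held GTAAACA on either strand in replicate 1 and 1.39% in replicate 2.

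The docking protein genes differed. Irs2 (ENSMUSG00000038894.7, chr8:10984681-11008458, minus strand), which serves insulin signalling in liver and beta cells, had a strong promoter peak, 7.26 in replicate 1 and 5.62 in replicate 2 (6.44 ± 1.16). The peak lay 403 to 483 bp upstream of the GENCODE TSS. In replicate 1 it covered the RefSeq TSS, position 11008929, and in replicate 2 it lay just upstream of that position. Irs1 (ENSMUSG00000055980.2, chr1:82233101-82291416, minus strand), whose product is the main insulin docking protein of skeletal muscle, had lower promoter accessibility. Its strongest peak reached 2.60 in replicate 1 and 2.57 in replicate 2 (2.58 ± 0.0215). The promoter peaks covered 880 and 1060 bp at Irs1 and 784 and 1020 bp at Irs2. The values of Irs2 lay above those of Irs1 in both libraries. Irs1 held 17 promoter footprints in each library and Irs2 held 6 in each, or 19.3 and 16.0 per kb of promoter peak for Irs1 and 7.65 and 5.88 for Irs2.

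Both docking protein genes carried CACGTG upstream of the TSS, followed by a T-rich stretch. The matches, in capitals with 18 bases on each side, lie on the minus strand at chr1:82291531-82291572 and chr8:11008950-11008991. The whole Irs2 peak of replicate 2, chr8:11008941-11009100 on the minus strand, is printed with footprints of both libraries in capitals.
Irs1 E-box: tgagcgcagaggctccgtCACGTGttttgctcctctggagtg
Irs2 E-box: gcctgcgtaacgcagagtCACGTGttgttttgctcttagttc
Irs2 promoter: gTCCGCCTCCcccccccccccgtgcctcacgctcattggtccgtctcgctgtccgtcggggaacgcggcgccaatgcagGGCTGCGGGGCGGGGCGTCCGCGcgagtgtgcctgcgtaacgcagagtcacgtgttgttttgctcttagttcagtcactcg
The E-box of Irs1 lay 133 bp and that of Irs2 510 bp upstream of the GENCODE TSS. Neither was inside a footprint: a footprint edge touched 1 base of the Irs1 letters in replicate 1 and 2 bases of the Irs2 letters in replicate 2. In Irs2 the footprint shared by the libraries covered GGGCGG, the GC box bound by SP and KLF factors. The E-box was present in the windows of 3 of 8 genes in replicate 1 (Igf1r, Irs1 and Irs2) and 2 of 9 in replicate 2 (Igf1r and Irs2), against 8.39% and 8.38% of all windows. Irs1 dropped out in replicate 2 because its strongest peak there lay 216 bp downstream of the TSS, while another peak, across the TSS with a signal of 2.44, still covered the letters.

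Akt1 (ENSMUSG00000001729.14, chr12:112653821-112674884, minus strand), the kinase between PI3 kinase and the FOXO and mTOR branches, had no promoter peak at its GENCODE basic TSSs in either library, and none of the 4002 bp around them reached a false discovery rate of 0.001. The result turned on the choice of TSS. A peak at chr12:112675361-112675540 was present in both libraries, with a signal of 3.71 in replicate 1 and 1.80 in replicate 2 (2.76 ± 1.35). It lay 1085 bp from the nearest basic TSS and 477 bp from the gene's outermost start at position 112674884. That start is in the full GENCODE annotation, as a protein-coding transcript, and in RefSeq. With all GENCODE starts, 9 of the 10 genes had a promoter peak in both libraries, against 60.7% of all genes. Within 1 kb of this start, 267 bp in replicate 1 and 152 bp in replicate 2 were at or below a rate of 0.001. The peak is shown on the minus strand, with footprints of both libraries in capitals.
Akt1 upstream peak: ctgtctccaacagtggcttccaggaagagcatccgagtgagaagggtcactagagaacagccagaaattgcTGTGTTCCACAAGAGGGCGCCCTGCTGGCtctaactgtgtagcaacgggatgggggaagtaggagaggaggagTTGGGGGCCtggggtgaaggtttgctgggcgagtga
Its 38 footprint bases formed 2 stretches, and the sequence held no exact match to the 14 motifs searched. Near matches were not looked for.

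Foxo1 (ENSMUSG00000044167.6, chr3:52268336-52353221, plus strand) and Foxo3 (ENSMUSG00000048756.11, chr10:42181841-42276755, minus strand) encode the transcription factors that AKT holds in the cytoplasm. Foxo3 had the steadier and higher promoter signal, 7.81 in replicate 1 and 7.54 in replicate 2 (7.68 ± 0.192), above 91.7% and 93.3% of the genes with a promoter peak. That peak was not the one at the TSS. It lay 846 to 866 bp upstream, while the peak across the TSS had 3.89 and 2.52. With a promoter limited to 500 bp, the mean for Foxo3 was 3.20. Foxo1 had its strongest promoter peak across the TSS, at 3.40 in replicate 1 and 1.60 in replicate 2 (2.50 ± 1.27), above 44.2% and 26.8% of genes. With the 1 kb limit the values of Foxo3 and Foxo1 did not overlap, while those of the peaks across their TSSs did. Within each library the peak across the TSS was still higher at Foxo3 (3.89 against 3.40, and 2.52 against 1.60).

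The upstream Foxo3 element and the part of the Foxo1 peak before the TSS are printed because both carry GC boxes inside footprints of both libraries. The Foxo3 sequence is chr10:42277621-42277900 on the minus strand and the Foxo1 sequence is chr3:52268161-52268335 on the plus strand, with those footprints in capitals.
Foxo3 upstream element: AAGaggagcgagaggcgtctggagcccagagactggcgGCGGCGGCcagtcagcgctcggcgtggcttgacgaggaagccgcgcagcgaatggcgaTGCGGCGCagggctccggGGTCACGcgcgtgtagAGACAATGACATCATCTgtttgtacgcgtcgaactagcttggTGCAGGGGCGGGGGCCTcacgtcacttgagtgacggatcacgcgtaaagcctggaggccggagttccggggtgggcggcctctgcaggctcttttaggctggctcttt
Foxo1 promoter: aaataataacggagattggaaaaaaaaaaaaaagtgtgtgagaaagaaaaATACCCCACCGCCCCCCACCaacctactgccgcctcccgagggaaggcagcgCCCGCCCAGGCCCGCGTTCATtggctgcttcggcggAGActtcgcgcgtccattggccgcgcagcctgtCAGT
In Foxo3 the footprint over GGGCGG lay 963 bp upstream of the TSS. Foxo1 had shared footprints over CCGCCC, the same letters on the other strand, 117 and 72 bp upstream of the TSS. Foxo1 also held ATTGGCT, the reversed CCAAT box bound by NFY, 54 bp upstream, which a footprint covered wholly in replicate 2 and by 2 bases in replicate 1. NFY letters stood in the promoter windows of Foxo1 and Mtor in both libraries, against 9.96% and 10.2% of all windows.

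Mtor (ENSMUSG00000028991.15, chr4:148448611-148557683, plus strand) encodes the kinase of both mTOR complexes, and Rptor (ENSMUSG00000025583.15, chr11:119602905-119899576, plus strand) encodes raptor, which is specific to complex 1. Rptor had the highest mean of the 10 genes, 9.48 in replicate 1 and 7.15 in replicate 2 (8.31 ± 1.65), above 97.4% and 91.6% of genes. The Rptor peak starts just before the RefSeq TSS at position 119602905. Mtor had 3.99 in replicate 1 and 7.17 in replicate 2 (5.58 ± 2.25). The log2 ratio of replicate 1 to replicate 2 was -0.84 for Mtor, against a median of 0.32 (SD 0.46 over 12840 genes) for all genes with a promoter peak in both libraries. The other 7 genes had log2 ratios from 0.02 to 1.09. The Mtor difference between the libraries rests on single values, and its cause was not tested.

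The Mtor promoter is printed as chr4:148448321-148448600 on the plus strand, with footprints of both libraries in capitals, because it carries letters for several factors and had a GC content of 55.0%, the lowest of the promoter peaks printed whole.
Mtor promoter: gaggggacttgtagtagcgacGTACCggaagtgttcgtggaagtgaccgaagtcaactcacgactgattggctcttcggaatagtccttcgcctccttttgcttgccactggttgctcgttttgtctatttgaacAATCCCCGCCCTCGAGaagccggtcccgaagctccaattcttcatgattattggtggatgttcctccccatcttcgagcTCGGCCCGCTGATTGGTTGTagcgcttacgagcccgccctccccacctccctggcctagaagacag
The footprint over CCGCCC lay 150 bp upstream of the TSS. CCGGAAG, the ETS letters, lay 266 bp upstream, inside a footprint of replicate 1 and touched by 2 bases of one in replicate 2. ATTGGCT lay 224 bp upstream and was touched by a footprint edge only. The shared footprint nearest the TSS holds ATTGGTT, which differs from these letters by a base and so was not counted. ETS letters were in 15.1% and 14.5% of all promoter windows.

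Ordered by mean promoter signal, the 8 genes ran Rptor, Foxo3, Irs2, Mtor, Insr, Igf1r, Irs1 and Foxo1. Of neighbours in this order, only Foxo3 (7.54 to 7.81) and Irs2 (5.62 to 7.26) had ranges over the libraries that did not overlap. The other neighbours were not separated by the spread between the libraries, which differ in their median signal. Of these, only Insr and Igf1r kept their order within each library (6.34 against 4.80, and 3.35 against 2.38). The places of Foxo3 and Igf1r depended on the distance allowed from the GENCODE TSS. Within 2 kb their means stayed at 7.68 and 3.59, as with 1 kb. With 500 bp the mean of Foxo3 was 3.20, below Insr (4.85). That of Igf1r was 2.11, below Irs1 (2.58) and Foxo1 (2.50). With 2 libraries of 1 group, no test of these differences was made.

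Away from promoters, the windows of most of these genes held more peaks than those of other genes. Distal peaks, more than 1 kb from every TSS of the GENCODE basic set, numbered a median of 4.65 per 100 kb of window in replicate 1 and 7.13 in replicate 2 over the 10 genes. The medians over all genes were 1.73 and 3.18. Some of these peaks lay within 1 kb of a start in the full annotation only, such as the Akt1 peak above and Rptor peaks at chr11:119811061-119811360 and chr11:119858161-119858340. In replicate 1, 9 of the 10 genes were above the median of all genes, and in replicate 2, 8 were. Among genes of like length, 7 of the 10 were above the middle in replicate 1 and 8 in replicate 2. The docking protein genes had the most in replicate 2, with 12.8 per 100 kb for Irs1 and 11.4 for Irs2, against 5.11 and 6.85 in replicate 1. Irs1 in replicate 2 was above 98.4% of the 2188 genes of like length, and in replicate 1 above 84.6%. The distal Irs1 peaks found in replicate 2 only had signals from 0.307 to 0.801, all below that library's median of 0.894. The place of Irs1 in replicate 2 thus rests in part on weak peaks of the longer list. Insr was the sparsest, with 0.563 in replicate 1 and 2.25 in replicate 2. That placed it above only 12.7% and 22.3% of the genes of like length. Igf1 had 2.02 in both libraries, above the median of all genes in replicate 1 and below it in replicate 2. Igf1r had 4.65 and 7.65.

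**Figure D2:**
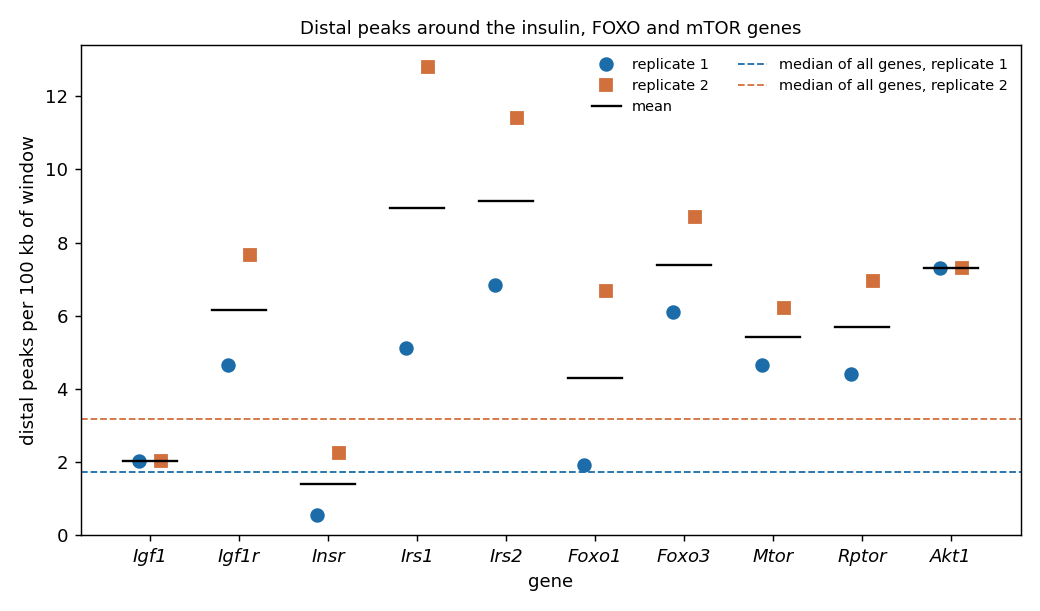
Distal peaks per 100 kb of window (vertical axis) for each gene in replicate 1 (circles) and replicate 2 (squares), with the mean as a black bar and the median of all genes as dashed lines. Insr lies below both medians, and Irs1 and Irs2 reach 12.8 and 11.4 in replicate 2.

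The strongest distal peak of the set lay inside Igf1r. At chr7:68129121-68129280, in an intron 176 kb downstream of the TSS, its signal was 9.21 in replicate 1 and 8.51 in replicate 2 (8.86 ± 0.492). This was above 99.4% and 99.6% of all peaks of the libraries and above the strongest promoter peak of Igf1r in each. A second intronic peak followed at chr7:68130001-68130200, with 5.78 and 4.41 (5.10 ± 0.968). The nearest TSS in the full GENCODE annotation was 19310 bp away and belonged to a transcript of Igf1r itself. No base of the first peak was marked as a repeat. It is printed as called in replicate 2, chr7:68129101-68129320 on the plus strand, with capitals for bases in footprints of both libraries.
Igf1r intronic peak: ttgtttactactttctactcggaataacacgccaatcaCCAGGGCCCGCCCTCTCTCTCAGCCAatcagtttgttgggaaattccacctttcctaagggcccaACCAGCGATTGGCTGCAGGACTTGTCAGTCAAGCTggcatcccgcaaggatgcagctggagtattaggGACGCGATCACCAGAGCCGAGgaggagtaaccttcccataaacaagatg
The 3 shared footprints covered 82 of 220 bases. The first holds CCGCCC and runs into AGCCAAT, which the footprint of replicate 1 covers wholly and that of replicate 2 in part. The second holds ATTGGCT, the same letters on the opposite strand, and the third held none of the motifs searched. NFY letters were in 3.02% of 47853 distal windows of this length in replicate 1 and 3.18% of 84002 in replicate 2, and 0.109% and 0.0976% held 2 or more. TGTTTAC, the FOXO letters, stands at the very start of the sequence, outside the replicate 1 peak and outside the shared footprints. FOXO letters were in 2.32% and 2.74% of distal windows of this length.

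Strong distal peaks elsewhere were lower. Insr had a single distal peak found in both libraries, in an intron 58.4 kb from the TSS at chr8:3221061-3221300, with 3.58 and 2.72 (3.15 ± 0.608). Foxo3 had one 1.41 kb upstream of its outermost TSS at chr10:42278061-42278260, with 5.13 and 3.62 (4.37 ± 1.07). Akt1 had one just past its 3' end at chr12:112653241-112653440, with 4.60 and 3.21 (3.90 ± 0.982). The strongest distal peak of Foxo1, 5.74 kb upstream at chr3:52262521-52262680, had 4.41 and 1.67 (3.04 ± 1.93), and 68.8% of its bases were marked as repeats in the reference. Reads in repeats can be placed uncertainly, and how the authors treated them is not given in the sources used here.

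For Irs1 the strongest distal peak was in its intron 7.99 kb from the TSS (3.24 and 2.28, 2.76 ± 0.682), and a second lay 1.57 kb upstream (2.34 and 2.56, 2.45 ± 0.151). For Irs2 the strongest was 5.10 kb upstream, in an intron of 9530052E02Rik (2.50 and 1.69, 2.09 ± 0.574). The strongest distal peaks of Rptor lay beyond its 3' end, at chr11:119909541-119909720 (3.45 and 2.16, 2.81 ± 0.911) and chr11:119905041-119905220 (3.19 and 2.00, 2.59 ± 0.838). They were nearer to the TSS of the neighbouring gene Chmp6, at 4.09 and 8.59 kb. Mtor and Igf1 had no distal peak in both libraries with a mean above 1.31. The strongest for Igf1 was 3.64 kb upstream (1.72 and 0.914, 1.31 ± 0.567). The strongest for Mtor, at 1.02 and 1.06 (1.04 ± 0.0271), overlapped a coding exon and the nested gene Angptl7.

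**Figure D3:**
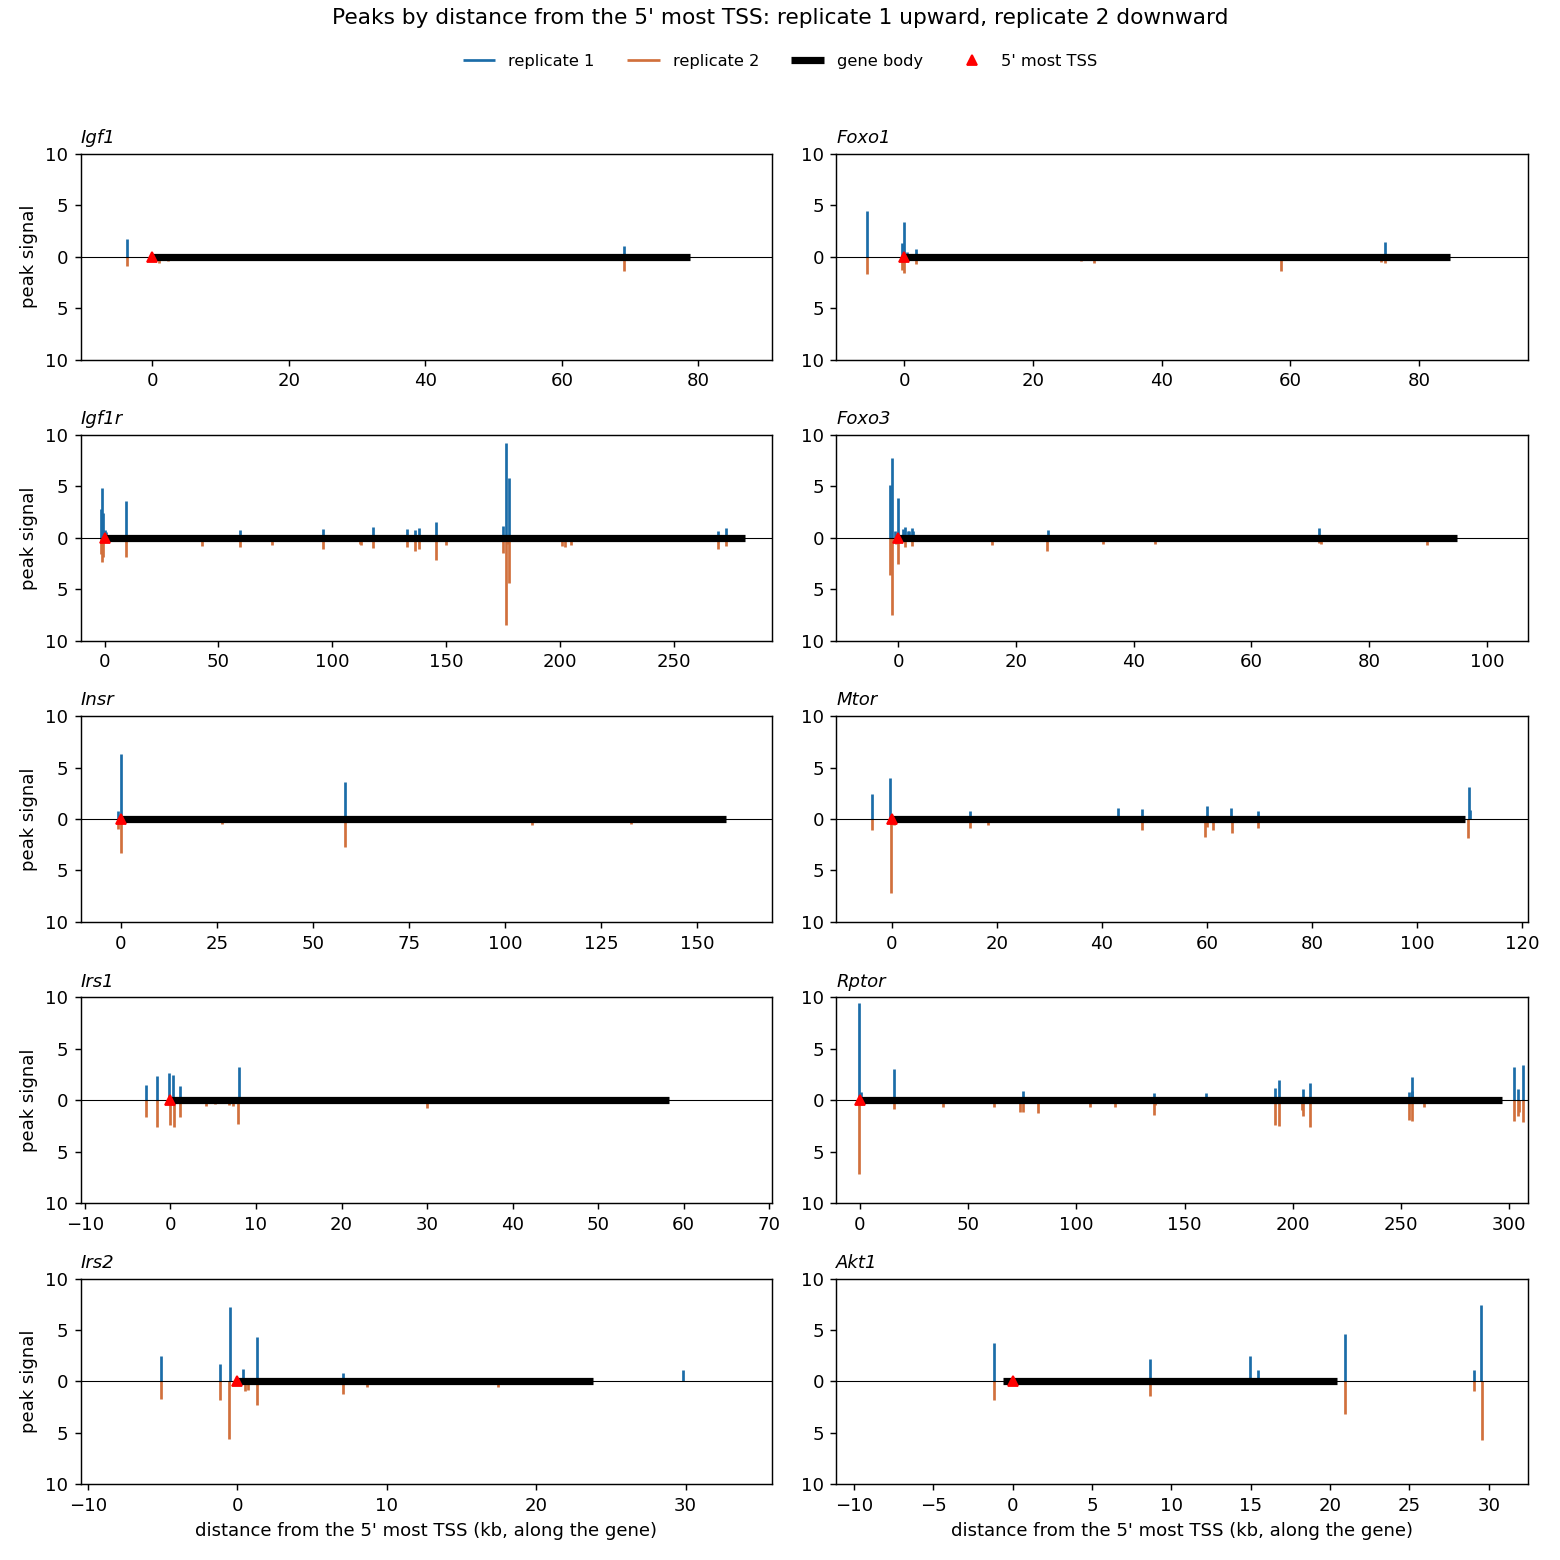
Peaks in the window of each gene by distance from its 5' most TSS (horizontal axis, kb, along the direction of the gene), with the height giving the peak signal, replicate 1 upward and replicate 2 downward. Igf1r shows its tallest peaks 176 kb into the gene, Foxo3 shows a group before its TSS, and the tallest peak in the Akt1 window, 7.47 and 5.66, is the promoter of Siva1.

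Some peaks in these windows belonged to other genes. The tallest peak in the Akt1 window, at 7.47 in replicate 1 and 5.66 in replicate 2, lay on the TSS of Siva1. The Mtor window held a promoter peak of Exosc10 (3.11 and 1.80). A peak in the coding part of Irs2, with 4.29 and 2.30, lay 590 and 570 bp from a TSS of 9530052E02Rik. These were counted neither as promoter peaks nor as distal peaks of the 10 genes.

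In all, the 10 windows held 87 peaks in replicate 1 and 124 in replicate 2. Of these, 72 in each overlapped a peak of the other library by at least 1 bp, which is 82.8% and 58.1%. Over the whole lists the shares were 85.8% and 56.1%, so the windows were close to the background. The 15 peaks of replicate 1 with no partner had a median signal of 0.884, against 1.61 for the shared ones, and the wider list of replicate 2 covered 11 of them. The 52 of replicate 2 with no partner had a median of 0.631, against 1.58, and the wider list of replicate 1 covered 22. Peaks found in a single library were thus weaker by median. Distal peaks of the windows were shared in 85.7% and 52.1% of cases, and promoter peaks in 81.8% and 73.9%. Shares by kind of peak were not computed over the whole lists.

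The windows held 318 footprints in replicate 1 and 457 in replicate 2, of which 216 and 310 were in peaks. Promoter peaks of the 10 genes held 74 and 75 footprints, or 14.3 and 13.5 per kb, against 13.3 and 12.7 per kb in all promoter peaks. Footprints shared by the libraries made up 48.7% and 34.6% in the windows and 51.6% and 35.4% over the genome. A shared footprint was counted as holding a motif when the middle of the motif lay in the bases common to both libraries. Of 155 shared footprints in the windows, 17 (11.0%) held the SP and KLF letters GGGCGG, against 8.03% of the 136586 shared footprints over the genome. The 17 include those of the Akt1 window, all of which lay in the replicate 2 peak on the TSS of Siva1. NFI letters, the paired half-sites of the nuclear factor I family, were in 4 (2.58%), against 0.305%. Of these 4, the windows of Igf1r and Mtor held 1 each and that of Akt1 held 2, the Mtor one in the exon peak next to Angptl7. NFY letters were in 2 (1.29%), against 0.412%, both in the Igf1r intronic peak. CTCF letters were in 1 (0.645%), against 3.56%, and EGR, NRF1 and E-box letters in 1 each. The NRF1 match lay in the promoter peak of Exosc10, in the Mtor window. FOXO letters were in none of the 155, and in 0.0344% over the genome. CRE, AP-1, ETS, YY1, RFX and MEF2 letters were in none of the 155 either. The counts are small, and footprints of 1 gene are not independent of each other.

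GC boxes were the most frequent letters in the promoter windows too. They stood in 5 of 8 genes in replicate 1 (Igf1r, Irs2, Foxo1, Foxo3 and Mtor) and in 6 of 9 in replicate 2 (the same and Irs1), against 61.2% and 55.5% of all windows. NRF1, CRE, AP-1, YY1, EGR, RFX, MEF2, CTCF and NFI letters were in none of the windows. The letters searched on both strands were GTAAACA for FOXO, GCGCATGCG for NRF1, GGGCGG for SP and KLF, CCGGAAG for ETS, TGACGTCA for CRE, CACGTG for the E-box, TGANTCA for AP-1 and AGCCAAT for NFY. Those for YY1 were AAGATGGCG, for EGR GCGTGGGCG, for RFX GTTGCCAT and for MEF2 CTATTTATA, while CTCF and NFI were searched by their longer consensus. The GCGTGGGCG of EGR shares bases with GGGCGG where they overlap, as in the single EGR match, at Foxo1.

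A further list of 100 genes of the same route, all found in the annotation, showed where in the route promoters were open. Of these, 87 had a promoter peak in both libraries (87.0%, against 58.7% of all genes), 12 had none in either, and Igfbp4, which encodes an IGF binding protein, had one in replicate 1 only (1.37). The list was chosen from general knowledge of the route, and the share is a description of it. All 7 further mTOR complex subunits, all 24 upstream regulators of complex 1, all 9 of its targets, both further FOXO genes and all 7 AKT-like kinases and substrates had a promoter peak in both libraries. The lowest share was that of ligands and binding proteins, with 5 of 11.

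**Figure D4:**
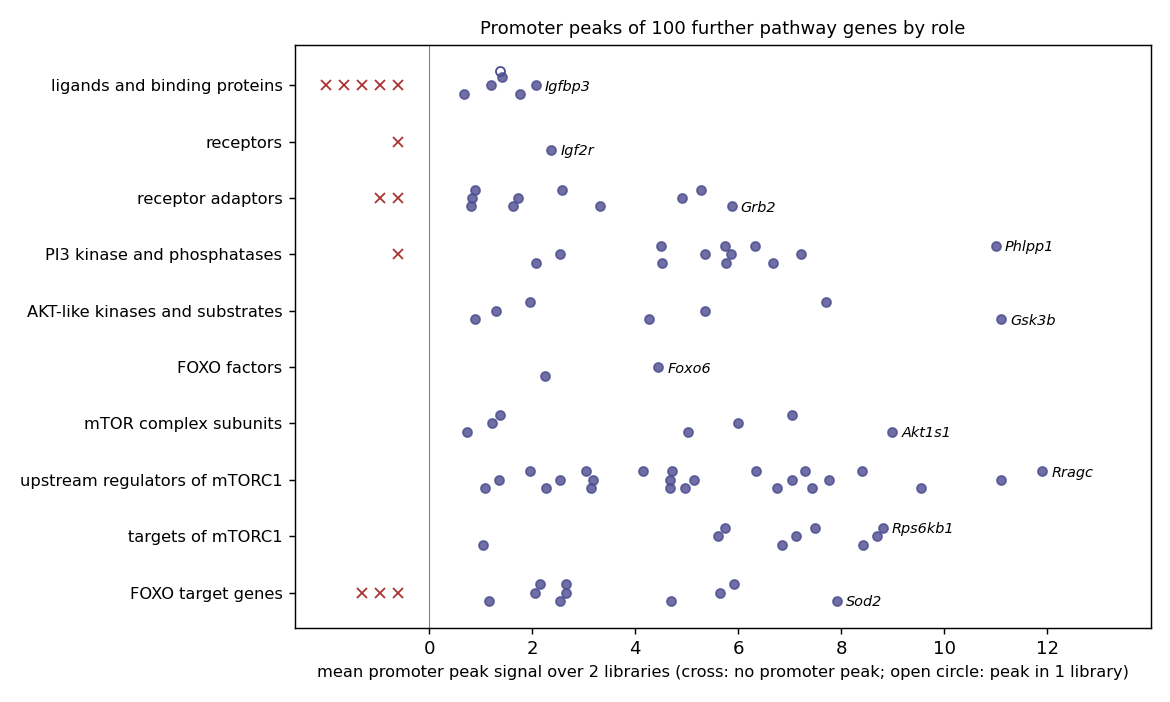
Mean signal of the strongest promoter peak over the libraries (horizontal axis, the authors' value) for 100 further genes grouped by role, with the top gene of each role named. Crosses are genes with no promoter peak in either library, which stand among the ligands and binding proteins (5), the receptors (1), the adaptors (2), the PI3 kinase group (1) and the FOXO target genes (3), and the open circle is Igfbp4.

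Among ligands and binding proteins the insulin genes Ins1 and Ins2, made in beta cells, had no promoter peak, nor did Igf2, Igfals and the liver-type binding protein gene Igfbp1. The highest was Igfbp3, a carrier of IGFs in blood, at 2.65 in replicate 1 and 1.49 in replicate 2 (2.07 ± 0.814). Of the receptors, Igf2r, which clears IGF2 and sorts lysosomal enzymes, had 2.96 and 1.79 (2.37 ± 0.825), and the orphan receptor gene Insrr had no peak. Among adaptors Irs3 and Irs4 had no promoter peak in the main lists, so that of the IRS genes Irs1 and Irs2 had peaks. Grb2, which links receptors to RAS, was the highest adaptor at 6.58 and 5.17 (5.87 ± 0.994).

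In the PI3 kinase group, Inpp5d, a lipid phosphatase gene of blood cells and microglia, had no promoter peak, and the microglial markers had none either. The highest was Phlpp1, whose product removes phosphate from AKT, at 10.3 and 11.6 (11.0 ± 0.871). Gsk3b, a kinase that AKT inhibits, had 9.36 and 12.7 (11.1 ± 2.39). Foxo6, a FOXO gene with high expression in brain, had 4.92 and 3.99 (4.45 ± 0.654), between Foxo3 and Foxo1. Among subunits the highest was Akt1s1, encoding the complex 1 inhibitor PRAS40, at 8.14 and 9.83 (8.99 ± 1.19). Of the regulators it was Rragc, a GTPase that brings complex 1 to the lysosome, at 14.6 and 9.22 (11.9 ± 3.78). Of the targets it was Rps6kb1, the S6 kinase gene, at 9.07 and 8.55 (8.81 ± 0.361).

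Genes that FOXO factors are known to activate were mixed. Sod2, the mitochondrial superoxide dismutase gene, had 8.29 in replicate 1 and 7.54 in replicate 2 (7.91 ± 0.528), and 10 of the 13 had a promoter peak in both libraries. The gluconeogenic genes G6pc and Pck1, which FOXO1 activates in liver, and Trim63, which FOXO factors activate in wasting muscle, had none in either main list. Trim63 had a peak in the wider list of replicate 2. The median promoter signal by role was highest for the targets of complex 1, at 8.03 and 6.69, and lowest for ligands and binding proteins, at 1.38 and 1.43.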

How the data were processed

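DNase-seq of 2 libraries of 1 group was analysed. Peaks and footprints were called in each library separately on mm10, per the labels and the notes deposited with the files. No source used here names the aligner, the callers or their thresholds. The deposited peak signal is the authors' value, of unstated scaling. The authors' footprint score was constant and carried no information. The deposited q-values (false discovery rates per base) were listed up to 0.05. Main results use each library's shorter list, and alternatives use the longer one.

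TSSs came from the GENCODE M21 basic annotation and sequences from the GRCm38.p6 reference. All printed letters and motif matches are those of the reference, and variants of the CAST parent were not looked at. RefSeq TSS positions came from its promoter table. Overlaps of at least 1 bp were found by code (python 3.11.15, numpy 2.4.6, pandas 2.3.3; figures with matplotlib 3.10.9) that was first tested on simulated data. Motifs were exact matches in windows of 200 bp centred on the strongest promoter peak. SDs are over 2 libraries, and no test was possible. All 10 genes are named. Of the further list, the highest gene of each role is named, with up to 4 per role that had no promoter peak (and Ins2 beside the 4 ligand and binding protein genes of that rule). Of distal peaks, up to 2 per gene found in both libraries are named. Ins2, Igfbp4, the Akt1 start, the Irs1 and Irs2 E-boxes and peaks of neighbouring genes were singled out after their values were seen. The genes and lists were chosen with earlier results of these data known.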

Additional observations from a re-analysis of the deposited data

How the results depend on the processing

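Of 50 recomputed summary values, 44 stayed within the spread between the libraries, or within 1.5 times for counts, and 6 moved. Reversal was not tested, because the values are signals, counts, densities and shares, which have no direction to reverse. The median number of distal peaks per 100 kb over the 10 genes, 5.92 as the mean of the libraries, was 10.1 with the wider lists and 2.45 with only the peaks at or above the median signal of their list. Footprints per kb of promoter peak, 13.9 as the mean, were 11.0 with the wider lists, 14.4 with an equal number of strongest peaks and 15.1 with promoters within 500 bp. The median promoter signal, 5.21 over the genes with a peak in both libraries, ranged from 3.35 to 5.57 when 1 library was left out; the 3.35 is over 9 genes, since Igf1 enters, and over the same 8 genes replicate 2 gave 4.49. The count of genes with a promoter peak ranged from 8 to 10, the wider lists giving 10, a 2 kb promoter 9, and all GENCODE starts, an alternative chosen after seeing the data, 9. The further list gave 78 to 90 of 100. The share of peaks found in both libraries averaged 70.4% and ranged from 63.2% to 78.2%. Its limit was wide, an SD of 17.5 points between libraries whose lists differ in length. For single genes, 19 of 108 values moved, 8 of them distal peak counts under the wider lists. Leaving out 1 library could not move a single-gene value or the footprint density. That shift is never larger than the spread used as the limit, so those values stayed by construction. Foxo3 was the only gene whose promoter signal moved beyond its own spread. With 500 bp the mean of Igf1r fell from 3.59 to 2.11, which its wide spread (SD 1.71) left labelled as staying. Read depth is unknown, and its part in calls of weak peaks was not tested. No paired analysis was possible because the libraries form a single group.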
